A study of Mus musculus with 15 samples.

Results

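Pitpnm2, Ccdc30, Ttbk1 and Vill were the 4 genes selected here as clean changes of caspase-2-deficient lymphoma, and Pitpnm1, Pitpnm3, Ttbk2 and Vil1 were added as their family members, which gave 8 of the 23329 genes in the count files. The 4 lead genes were chosen on their difference between EμMyc/Casp2-/- and EμMyc lymphomas, where they held ranks 2, 3, 4 and 5 by likelihood ratio p-value among 14880 tested genes, so that difference is described below without a test. The 4 relatives were chosen by family alone. Of the 8 genes, 7 passed the filter on low counts (over 1 CPM, the read count scaled to library size, in at least 3 tumors), and Vil1 did not.

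RNA-seq had been carried out on primary mouse tumors, 1 library per mouse, in 4 groups of 4, 3, 4 and 4 tumors. EμMyc mice (C57BL/6) carry c-Myc under the immunoglobulin heavy chain enhancer, which drives it in B cells, and their lymphomas were taken from cervical lymph nodes of 4 Casp2 wild-type mice (tumor onset 13, 13, 13 and 19 weeks) and of 3 Casp2-/- mice (9, 8 and 12 weeks). Th-MYCN mice (Sv129/C57BL6) carry MYCN under the tyrosine hydroxylase promoter, which drives it in sympathetic neuroblasts, and their paraspinal thoracic tumors, picked for little or no vascularization, came from 4 wild-type mice (onset 21, 13, 10 and 15 weeks) and 4 Casp2-/- mice (15, 18, 24 and 15 weeks). Every tumor therefore carried a Myc family transgene, and the control tumors were tumors, not normal tissue. Onset did not overlap between the lymphoma groups, so genotype and age at onset cannot be told apart there. Tissue, strain and transgene likewise all differed between the tumor types. One further Casp2-/- lymphoma, which the study removed as an outlier that correlated poorly with its replicates, was not analysed here. Statements on every Casp2-/- lymphoma refer to the other 3.

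Depth was 4940464 to 17638029 second-strand reads per tumor, lowest in EuMycC2ko215. B cell markers summed to between 2000 and 4535 CPM in the 7 lymphomas and to at most 23.0 CPM in the neuroblastomas, while sympathoadrenal markers summed to 2094 CPM or more in the neuroblastomas and to at most 14.3 CPM in the lymphomas, as the labels state. Casp2 itself was 51.9 to 76.1 CPM in EμMyc/Casp2-/- against 125 to 203 CPM in EμMyc tumors (log2 fold change -1.35, edgeR likelihood ratio test, false discovery rate (FDR) 0.000400, FDR 0.0536 by the quasi-likelihood test). In neuroblastoma it was 39.6 to 80.2 CPM against 76.0 to 125 CPM (log2 fold change -0.79, FDR 0.101). Of 9 T cell markers, 6 were called higher in EμMyc/Casp2-/- than in EμMyc lymphomas by the likelihood ratio test and 0 by the quasi-likelihood test. The summed T cell level was 61.5 to 105 CPM in EμMyc tumors and 1871, 211 and 127 CPM in EuMycC2ko215, EuMycC2ko239 and EuMycC2ko245, with none of the 9 markers at 0 in those 3 tumors. EuMycC2ko215 also held 172 CPM of 5 epithelial markers, against at most 13.1 CPM in any other tumor. Macrophage markers summed to 1525, 903 and 260 CPM in the same 3 tumors, in that order, against 494 to 950 CPM in EμMyc tumors. Pre-B markers summed to 781, 99.8 and 157 CPM against 28.5 to 394 CPM. Cr2 of the mature B and Gata3 of the sympathoadrenal markers were called higher by the likelihood ratio test, neither by the quasi-likelihood test. The part of these other cell types in the results was not tested, and the values of the members and of Pls1 and Gsn among the list genes without EuMycC2ko215 are given beside them. In bulk tumor RNA, fewer cells of a type and less RNA per cell cannot be told apart.

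Pitpnm1, Pitpnm2 and Pitpnm3 encode membrane-associated phosphatidylinositol transfer proteins, known in flies as the retinal degeneration B family and in mammals also as Nir proteins. They exchange phosphatidylinositol for phosphatidic acid between the endoplasmic reticulum and the plasma membrane and so resupply the lipid that phospholipase C consumes in receptor signalling; Pitpnm3 lacks the transfer domain of the other two. Ttbk1 and Ttbk2 encode tau tubulin kinases of the casein kinase 1 superfamily, the former known chiefly from neurons and the latter for starting cilium assembly. Vil1 encodes villin, the actin-bundling and severing protein of the intestinal brush border, and Vill encodes villin-like protein of the same gelsolin superfamily. Ccdc30 encodes a coiled-coil protein that has also been named prefoldin subunit 6-like, after the chaperone that hands unfolded actin and tubulin to the cytosolic chaperonin.

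The lead genes lie on 4 chromosomes and share no neighbor. In GRCm38, Pitpnm2 is at chr5:124118690-124249760 on the minus strand, Ccdc30 at chr4:119322893-119415521 on the minus strand, Ttbk1 at chr17:46442448-46487675 on the minus strand and Vill at chr9:119052778-119071525 on the plus strand. The RefSeq (GRCm38.p6) windows of 300 bases around the first listed start of each lead gene are shown because these genes were placed together for one contrast, so that a reader can compare what lies at their starts. Capitals mark the matches to GGGCGG (the GC box, bound by Sp factors) or CCAAT on either strand; CACGTG (the E-box bound by Myc and Max) and TATAAA were also searched.
Pitpnm2 (chr5:124249711-124250010, - strand): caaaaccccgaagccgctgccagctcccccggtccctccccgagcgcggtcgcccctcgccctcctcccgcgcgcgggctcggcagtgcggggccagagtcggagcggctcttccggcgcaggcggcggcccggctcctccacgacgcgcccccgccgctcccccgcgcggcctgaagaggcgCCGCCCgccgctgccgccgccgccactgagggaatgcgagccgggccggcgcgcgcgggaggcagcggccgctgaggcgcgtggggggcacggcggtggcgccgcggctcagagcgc
Ccdc30 (chr4:119415472-119415771, - strand): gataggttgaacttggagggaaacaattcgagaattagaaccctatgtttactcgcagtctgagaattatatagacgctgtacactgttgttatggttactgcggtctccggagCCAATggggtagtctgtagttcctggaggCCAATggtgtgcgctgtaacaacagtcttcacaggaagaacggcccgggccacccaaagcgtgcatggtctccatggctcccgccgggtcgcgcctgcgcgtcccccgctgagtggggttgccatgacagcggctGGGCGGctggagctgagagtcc
Ttbk1 (chr17:46487626-46487925, - strand): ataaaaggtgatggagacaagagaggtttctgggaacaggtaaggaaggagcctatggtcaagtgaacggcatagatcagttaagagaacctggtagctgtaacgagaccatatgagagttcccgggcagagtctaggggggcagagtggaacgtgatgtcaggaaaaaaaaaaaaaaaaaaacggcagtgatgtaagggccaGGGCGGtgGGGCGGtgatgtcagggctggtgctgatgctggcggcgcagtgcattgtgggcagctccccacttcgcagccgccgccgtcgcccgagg
Vill (chr9:119052528-119052827, + strand): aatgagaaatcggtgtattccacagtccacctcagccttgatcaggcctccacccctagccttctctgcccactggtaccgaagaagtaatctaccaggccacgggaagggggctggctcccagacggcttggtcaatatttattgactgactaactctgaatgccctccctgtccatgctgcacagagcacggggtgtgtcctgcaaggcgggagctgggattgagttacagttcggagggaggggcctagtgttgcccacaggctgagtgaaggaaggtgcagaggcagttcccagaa
CACGTG was in none of the windows of the 8 genes, and it was in 7.15% of all 32851 windows of the table. Among the lead genes shown, GGGCGG (35.7% of all windows) was matched at the starts of Pitpnm2 at -67, Ccdc30 at 29 and Ttbk1 at -47 and -39, in bases from the start. CCAAT (37.4% of all windows) was matched at the start of Ccdc30 alone, at -136 and -107, TATAAA (13.6% of all windows) in none of these 4, and the Vill window held no match to any of the 4 motifs. The windows differed in composition. That of Pitpnm2 was 82% G or C with 53 CpG pairs, against a median of 52.7% and 7 over all windows, while that of Vill was 56.3% G or C with 7 CpG pairs. Those of Ccdc30 and Ttbk1 held 18 and 15 CpG pairs at 56.7% and 55% G or C. A match describes letters and is not evidence of binding.

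Pitpnm2 was the lead gene that was lower in EμMyc/Casp2-/- lymphoma. It was at 70.5, 115, 116 and 162 CPM in the EμMyc tumors EuMyc614, EuMyc743b, EuMyc829 and EuMyc835, and at 6.25, 7.93 and 4.74 CPM in EuMycC2ko215, EuMycC2ko239 and EuMycC2ko245. The groups did not overlap, and the highest Casp2-/- tumor was far under the lowest wild-type one. The fitted log2 fold change was -4.19 (SE 0.388), an 18.3-fold lower level, and it was -4.17 without EuMycC2ko215. In neuroblastoma Pitpnm2 was at 23.3, 35.1, 57.9 and 24.2 CPM in Th-MYCN and at 45.4, 65.3, 45.0 and 28.4 CPM in Th-MYCN/Casp2-/- tumors, groups that overlapped widely.

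Ccdc30 was nearly unread in EμMyc lymphoma, with 0, 2, 1 and 0 reads in EuMyc614, EuMyc743b, EuMyc829 and EuMyc835. The Casp2-/- lymphomas EuMycC2ko215, EuMycC2ko239 and EuMycC2ko245 held 20, 37 and 15 reads, or 3.91, 3.09 and 1.51 CPM. Every Casp2-/- lymphoma was thus above every wild-type one, though from few reads, and the 0 reads of EuMyc614 and EuMyc835 allow up to 0.262 and 0.319 CPM. The pooled reads were 72 against 3, a ratio of 40.2 by library size, given as a size because the gene was chosen on this difference. The fitted log2 fold change was 5.19, was 4.97 without EuMycC2ko215, and was 6.13 without EuMyc743b, which held 2 of the 3 wild-type reads. In neuroblastoma the gene was well read and even, at 14.6, 13.7, 15.4 and 14.8 CPM in Th-MYCN and 17.9, 14.9, 14.0 and 16.1 CPM in Th-MYCN/Casp2-/- tumors.

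Ttbk1 was also low in EμMyc lymphoma, at 0.875, 0.0855, 0.315 and 0 CPM from 10, 1, 4 and 0 reads in EuMyc614, EuMyc743b, EuMyc829 and EuMyc835. In EuMycC2ko215, EuMycC2ko239 and EuMycC2ko245 it was at 3.32, 5.09 and 3.84 CPM from 17, 61 and 38 reads. The groups did not overlap, and EuMyc614 held 10 of the 15 wild-type reads. The fitted log2 fold change was 3.61 (SE 0.518), was 3.74 without EuMycC2ko215, and was 4.76 without EuMyc614, a move of over 1.5 times in fold. Both lymphoma groups stayed far under neuroblastoma, where Ttbk1 was at 64.1, 99.1, 102 and 74.8 CPM in Th-MYCN and 106, 85.5, 55.0 and 111 CPM in Th-MYCN/Casp2-/- tumors.

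Vill had its highest levels of the series in EμMyc/Casp2-/- lymphoma. It was at 1.14, 2.40, 2.76 and 0.956 CPM in EuMyc614, EuMyc743b, EuMyc829 and EuMyc835, and at 29.7, 17.5 and 20.8 CPM in EuMycC2ko215, EuMycC2ko239 and EuMycC2ko245. Again the groups did not overlap. The fitted log2 fold change was 3.62 (SE 0.470), a 12.3-fold higher level, and was 3.40 without EuMycC2ko215. In neuroblastoma it was at 0.611, 0.944, 1.04 and 1.24 CPM in Th-MYCN and 0.648, 0.514, 1.16 and 0.650 CPM in Th-MYCN/Casp2-/- tumors, all at or under 20 reads.

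**Figure D1:**
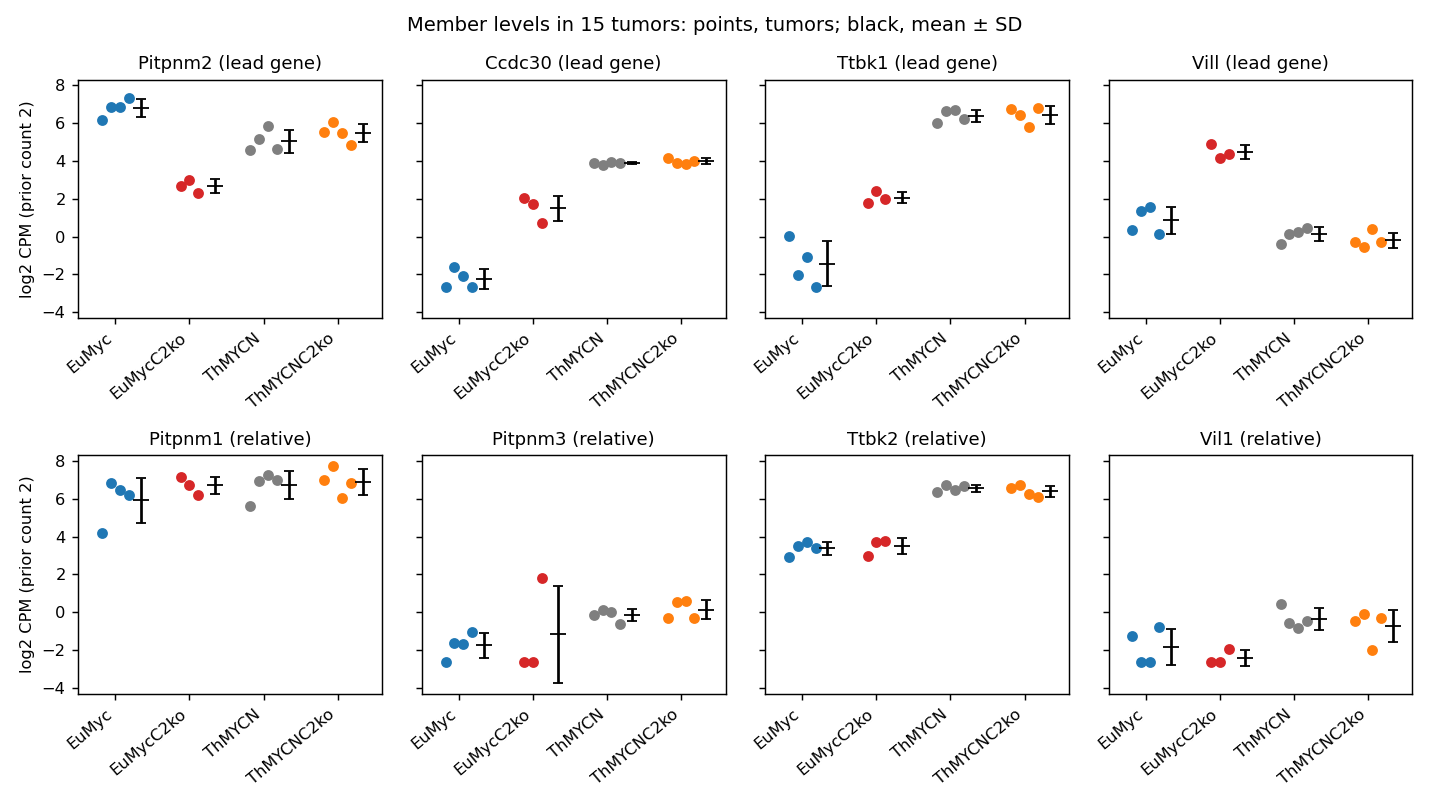
Level of the 8 genes in the 15 tumors, one panel per gene, as log2 CPM with a prior count of 2 on the vertical axis and the 4 groups on the horizontal axis. Points are tumors and the black mark is the group mean ± SD. In the upper row (lead genes) the 3 red EμMyc/Casp2-/- points lie apart from the 4 blue EμMyc points, the difference the genes were chosen for. In the lower row (relatives) red and blue points overlap in every panel, and the grey and orange neuroblastoma points overlap in all 8.

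For scale, 215 of the 14880 tested genes (1.44%) were called between the lymphoma genotypes at an FDR under 0.05 and over 2-fold by the likelihood ratio test, 0.141% by the quasi-likelihood test, and in 3.7% the groups did not overlap. The 4 lead genes passed all 3 criteria, as their choice on this contrast required, and nothing is read from that count.

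The question for the relatives was whether they followed their lead gene. Of the 3 relatives that could be tested, Pitpnm1, Pitpnm3 and Ttbk2, the edgeR likelihood ratio test called 0 between EμMyc/Casp2-/- and EμMyc, and the quasi-likelihood test and DESeq2 also called 0. At an unadjusted p under 0.05 there was 1, Pitpnm3, by each edgeR test. None of the 3 had groups without overlap.

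Pitpnm1, whose mean level per kilobase of exon was the highest of the 8 genes in every group, was at 18.1, 115, 86.9 and 74.2 CPM in EuMyc614, EuMyc743b, EuMyc829 and EuMyc835 and at 143, 107 and 74.3 CPM in EuMycC2ko215, EuMycC2ko239 and EuMycC2ko245. The ranges overlapped, and EuMyc614 was the low tumor. The fitted log2 fold change of 0.56 (SE 0.510) went the opposite way to that of Pitpnm2 and did not pass (FDR 0.824 by the likelihood ratio test, 0.810 by the quasi-likelihood test). Without EuMycC2ko215 it was 0.33 (FDR 1). In the neuroblastomas Pitpnm1 was at 49.2 to 155 CPM in Th-MYCN and 66.9 to 211 CPM in Th-MYCN/Casp2-/- tumors. Per kilobase of exon, the level of Pitpnm2 was 0.602 to 2.33 times that of Pitpnm1 in the EμMyc tumors, 0.0263 to 0.0443 times in the 3 EμMyc/Casp2-/- tumors, and 0.113 to 0.403 times in the 8 neuroblastomas. The 2 genes lay nearest to each other per length in the EμMyc tumors.

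Pitpnm3 was rarely read in lymphoma. The EμMyc tumors EuMyc614, EuMyc743b, EuMyc829 and EuMyc835 held 0, 2, 2 and 3 reads, and EuMycC2ko215, EuMycC2ko239 and EuMycC2ko245 held 0, 0 and 33 reads. Its fitted log2 fold change of 2.76 (SE 1.16, FDR 0.267 by the likelihood ratio test, 0.525 by the quasi-likelihood test) rested on EuMycC2ko245 alone, since the other two Casp2-/- lymphomas had no read, which allows up to 0.586 and 0.250 CPM. Counted on the first strand, the gene had 5, 2 and 31 reads in these 3 tumors, and the call then passed (log2 fold change 4.72, FDR 0.00248 by the likelihood ratio test), as it did on either strand (3.58, FDR 0.0197) and without EuMycC2ko239 (3.42, FDR 0.0187). Without EuMycC2ko215 it was 3.33 (FDR 0.168). In each of these counts most reads came from EuMycC2ko245, and without that tumor the gene did not pass the filter. In neuroblastoma Pitpnm3 was at 0.494 to 0.944 CPM in Th-MYCN and 0.648 to 1.35 CPM in Th-MYCN/Casp2-/- tumors.

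Ttbk2 was at 7.44, 11.1, 13.1 and 10.5 CPM in EuMyc614, EuMyc743b, EuMyc829 and EuMyc835, and at 7.81, 13.2 and 13.5 CPM in EuMycC2ko215, EuMycC2ko239 and EuMycC2ko245. The groups lay on top of each other. The log2 fold change was 0.14 (SE 0.270, FDR 0.928 by the likelihood ratio test), and 0.36 (FDR 1) without EuMycC2ko215. Per kilobase of exon, the level of Ttbk1 was 0 to 0.0947 times that of Ttbk2 in the EμMyc tumors, 0.228 to 0.342 times in the EμMyc/Casp2-/- tumors, and 0.579 to 1.32 times in the neuroblastomas. The kinase that was chosen thus stayed the minor one of the pair per length in all 7 lymphomas.

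Vil1 had at most 20 second-strand reads in any tumor and was not tested. The EμMyc tumors EuMyc614, EuMyc743b, EuMyc829 and EuMyc835 held 3, 0, 0 and 4 reads and the 3 EμMyc/Casp2-/- tumors 0, 0 and 1. The ratio of the pooled reads, Casp2-/- to wild-type, was 0.239 with an exact 95% Poisson interval of 0.00531 to 1.86, which spans no difference. That interval covers counting error only. Its first-strand counts in the lymphomas were higher, 50 and 35 reads over the 2 groups against 7 and 1 on the second strand, while counting on either strand gave 11 and 1. Usp37, on the opposite strand, overlaps 49 exon bases of Vil1 in the annotation used here, and the part of Usp37 in those first-strand reads was not tested.

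The same question in neuroblastoma compared tumors outside the lymphoma contrast, though all 4 groups shared 1 estimate of the spread in the fit. A fit of the neuroblastomas alone also called 0. Of the 7 genes tested, 0 were called between Th-MYCN/Casp2-/- and Th-MYCN by the likelihood ratio test, the quasi-likelihood test or DESeq2, and 0 reached an unadjusted p under 0.05 by either edgeR test. Over all genes 0.813% were called by the likelihood ratio test, 0.0336% by the quasi-likelihood test, and 6.62% had groups without overlap, against 0 of these 7. The log2 fold changes of the lead genes were 0.39 (SE 0.344, FDR 0.977) for Pitpnm2, 0.10 (SE 0.326, FDR 1) for Ccdc30, 0.07 (SE 0.306, FDR 1) for Ttbk1 and -0.39 (SE 0.504, FDR 1) for Vill. Those of the relatives were 0.18 (SE 0.471) for Pitpnm1, 0.37 (SE 0.958) for Pitpnm3 and -0.14 (SE 0.231) for Ttbk2, all with an FDR of 1.

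The difference between the tumor types in their response to Casp2 loss, the interaction of genotype and tumor type, was called for 0.914% of all genes by the likelihood ratio test and 0.0538% by the quasi-likelihood test. Of the 3 relatives tested, 0 were called by either test or by DESeq2, and 0 had an unadjusted p under 0.05. The fitted interaction was 0.37 (SE 0.694) for Pitpnm1, 2.40 (SE 1.50) for Pitpnm3 and 0.28 (SE 0.356) for Ttbk2 on the log2 scale, and 0.14, 2.95 and 0.49 without EuMycC2ko215. Counted on the first strand, 1 was called, Pitpnm3 (5.31, FDR 0.0165). For the lead genes, whose lymphoma values were those they were chosen on, the interaction is a description: -4.58 for Pitpnm2, 5.08 for Ccdc30, 3.54 for Ttbk1 and 4.01 for Vill.

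**Figure D2:**
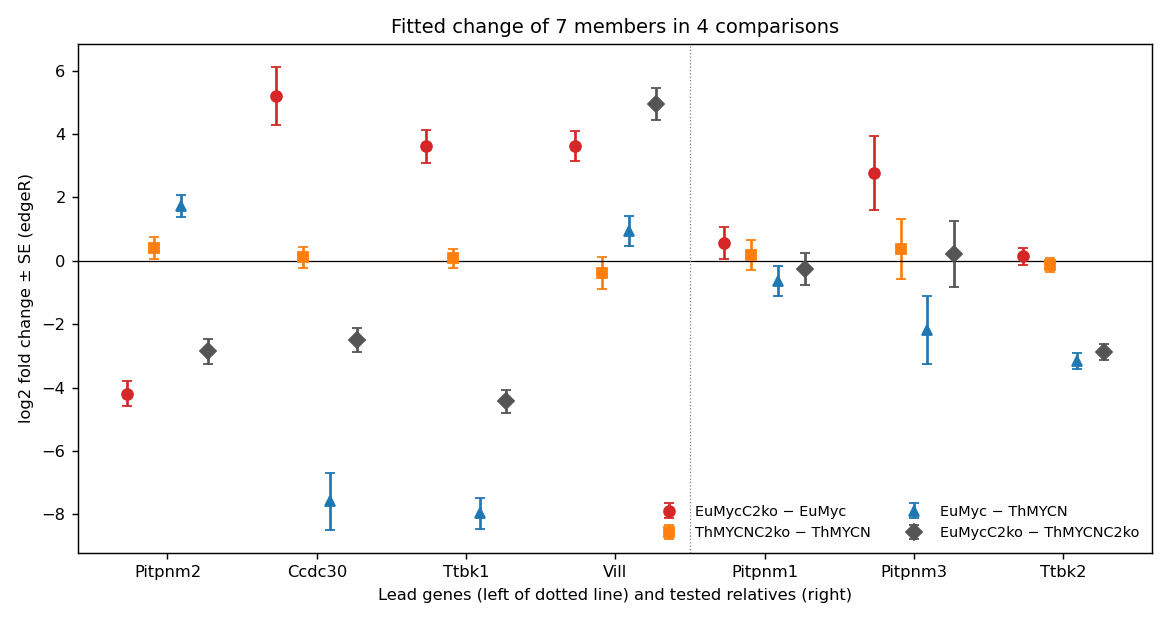
Fitted log2 fold change ± SE (vertical axis) of the 7 tested genes (horizontal axis) in 4 comparisons, with circles for lymphoma genotype, squares for neuroblastoma genotype, triangles for EμMyc against Th-MYCN and diamonds for EμMyc/Casp2-/- against Th-MYCN/Casp2-/-. The neuroblastoma squares all lie between -0.39 and 0.39. The circles of Pitpnm1 and Ttbk2 lie near 0 at 0.56 and 0.14, and that of Pitpnm3 is at 2.76 with an SE of 1.16.

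Between the tumor types, the lymphoma side consists of the same tumors that chose the lead genes, so their differences are given as sizes, and a test is read only for the relatives. In the wild-type comparison, Ccdc30 and Ttbk1 were lower in EμMyc than in Th-MYCN tumors (log2 fold change -7.59 and -7.97), Pitpnm2 was higher (1.72), and Vill, at 0.93, overlapped. In the Casp2-/- comparison, Ccdc30 and Ttbk1 were still lower in lymphoma, by smaller differences (-2.50 and -4.43), Pitpnm2 was at -2.86 in place of 1.72, and Vill was at 4.94. The direction for Pitpnm2 between tumor types was thus opposite in the 2 genotypes. Of the 4 group levels of Pitpnm2, EμMyc was highest, the 2 neuroblastoma groups overlapped each other, and EμMyc/Casp2-/- was lowest, with no overlap with its neighbors. For Ccdc30 and Ttbk1 the order was EμMyc, EμMyc/Casp2-/-, then both neuroblastoma groups, which overlapped. For Vill, EμMyc/Casp2-/- stood above the other three groups, which overlapped.

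Vil1 was not tested, and its values in an unfiltered fit are given in the last section. Of the 3 relatives tested, Ttbk2 was the one called between the tumor types. It was at 7.44 to 13.5 CPM in the 7 lymphomas and at 67.6 to 106 CPM in the 8 neuroblastomas, with no overlap. Its log2 fold change was -3.16 (SE 0.239, FDR 1.04e-33 by the likelihood ratio test, 2.25e-08 by the quasi-likelihood test) for EμMyc against Th-MYCN and -2.88 (SE 0.263, FDR 1.04e-22, 2.50e-07) for EμMyc/Casp2-/- against Th-MYCN/Casp2-/-. Both tau tubulin kinase genes were therefore lower in lymphoma than in neuroblastoma, and Ttbk2 was not called between genotypes in either. Without EuMycC2ko215 the Casp2-/- differences between tumor types were -2.79 for Pitpnm2, -2.69 for Ccdc30, -4.25 for Ttbk1, 4.76 for Vill and -2.62 for Ttbk2. Pitpnm1 did not pass in either comparison (-0.64, FDR 0.237, and -0.26, FDR 0.677). Pitpnm3 was at -2.19 (FDR 0.0609) and 0.21 (FDR 0.877), and its wild-type groups did not overlap. Ttbk2 was thus the 1 of 3 relatives called in each comparison, by both edgeR tests. Over all genes 47.5% and 48% were called by the likelihood ratio test and 46.1% and 46.4% by the quasi-likelihood test. In the wild-type comparison Pitpnm3 also passed on either strand, on the first strand and without EuMyc835 (-3.11, -4.33 and -2.67). The size for Vill was 1.29, 1.68 and 1.13 in those fits. Groups did not overlap for 2 of the 3 relatives in the wild-type and 1 of 3 in the Casp2-/- comparison, against 59.4% and 54.8% of all genes. With 3 genes and backgrounds of this size, nothing is read from these counts.

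The lead genes were then compared by strand of counting, because the study counted second-strand reads and the libraries proved to hold both strands equally: second-strand reads were 48.8% to 49.3% of the stranded total in every tumor. Reads of a gene and of one on its opposite strand can therefore not be told apart. Over the lymphomas, Pitpnm2 had 49.6% of its reads on the second strand in EμMyc and 47.4% in EμMyc/Casp2-/- tumors, Vill 47.5% and 52.7%, and Ttbk1 37.5% and 50.9%, the first of these from 40 reads in all. On the first strand, the 4 EμMyc tumors averaged 113 ± 33.4 CPM of Pitpnm2 and the 3 Casp2-/- lymphomas 6.69 ± 1.51 CPM (mean ± SD), against 116 ± 37.1 and 6.31 ± 1.59 CPM on the second. Vill averaged 1.93 ± 0.938 and 20.5 ± 8.77 CPM on the first strand, against 1.81 ± 0.898 and 22.7 ± 6.30 CPM on the second. In all 4 lead genes the lymphoma groups stayed apart in each of the 3 counts, and on the first strand, for example, the highest EμMyc and the lowest EμMyc/Casp2-/- tumor were at 0.332 and 1.28 CPM of Ccdc30 and at 1.62 and 3.34 CPM of Ttbk1. The 3 counts come from the same libraries, and the genes were chosen on this difference, so it is not a separate test of it. The annotation places 137 exon bases (0.989% of its exon length) of the antisense gene Gm47119 opposite Ttbk1 and no exon of another gene over those of Pitpnm2, Ccdc30 or Vill.

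**Figure D3:**
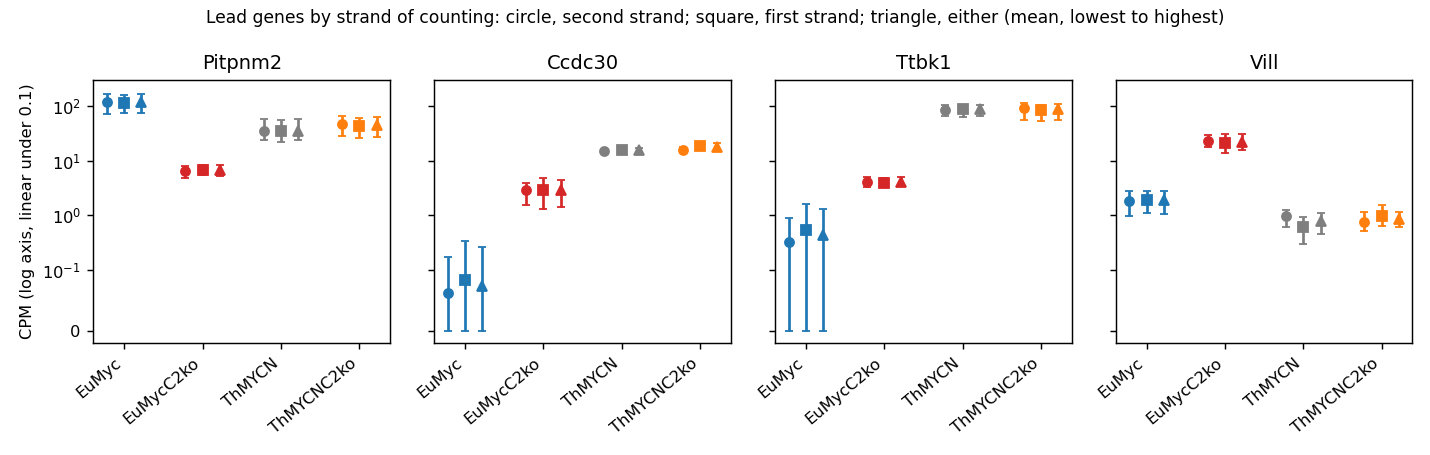
Mean CPM of the 4 lead genes in each group (points) with the lowest and highest tumor (bars), counted on the second strand (circles), the first strand (squares) and either strand (triangles). The vertical axis is logarithmic and linear under 0.1 CPM. The 3 symbols of a group lie close together, and the lymphoma groups, whose difference the genes were chosen for, do not overlap in any panel by any count.

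Genes tied to the lead genes by family, pathway or name were read from 4 lists. The prefoldin list was tied to Ccdc30 only through the other name of that gene. Of 54 list genes tested between EμMyc/Casp2-/- and EμMyc, 0 were called by the likelihood ratio test, the quasi-likelihood test or DESeq2, against 1.44% and 0.141% of all genes by the 2 edgeR tests. At an unadjusted p under 0.05 there were 6 by the likelihood ratio test and 5 by the quasi-likelihood test, against 9.89% and 8.53% of all genes. Groups did not overlap for 1 of 23 phosphatidylinositol, 3 of 17 kinase, 1 of 8 gelsolin and microvillus and 0 of 6 prefoldin genes. The share over all genes was 3.7%. Without EuMycC2ko215, 0 of the list genes were called. In that fit the log2 fold change was 1.58 for Osbpl5, -0.26 for Vapa, -0.42 for Ccdc41, -0.29 for Tardbp, -0.17 for Vbp1 and -0.06 for Pfdn2.

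Of 23 genes of phosphatidylinositol synthesis, transfer and phosphorylation, none was called, the median log2 fold change was 0.01 (all genes -0.03), and the range was -0.65 to 1.31. The smallest p-values belonged to Osbpl5 and Vapa. Osbpl5, a lipid exchanger at contacts between the endoplasmic reticulum and the plasma membrane, was at 7.26, 4.02, 2.60 and 7.96 CPM in EuMyc614, EuMyc743b, EuMyc829 and EuMyc835 and at 8.01, 7.01 and 25.3 CPM in EuMycC2ko215, EuMycC2ko239 and EuMycC2ko245. The groups overlapped and EuMycC2ko245 was the high tumor (log2 fold change 1.31, FDR 0.119), the one that also held the Pitpnm3 reads. Without EuMycC2ko239 the gene passed (1.64, FDR 0.0202). Vapa, the endoplasmic reticulum protein to which Nir proteins dock, was at a log2 fold change of -0.51 (FDR 0.401). The soluble transfer protein genes Pitpna and Pitpnb had log2 fold changes of 0.01 and -0.13.

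Of 17 casein kinase 1 family and tau tubulin kinase partner genes, none was called, and the median was -0.18. The smallest p-values were those of the gene listed as Ccdc41, now Cep83, whose protein anchors the mother centriole (-0.66, FDR 0.341), and of Tardbp, an RNA-binding protein that tau tubulin kinases phosphorylate (-0.40, FDR 0.490). Of 8 tested gelsolin superfamily and microvillus genes none was called, and the median was 0.14. Pls1, the actin bundler of microvilli, was at 2.26 (FDR 0.311), from 2.73 CPM in EuMycC2ko215, 0.751 CPM in EuMycC2ko239 and 0.707 CPM in EuMycC2ko245 against at most 0.437 CPM in EμMyc tumors, and at 1.39 (FDR 1) without EuMycC2ko215. Gsn, gelsolin itself, was at 0.52 (FDR 0.754), and at 0.17 (FDR 1) without that tumor. Of 6 prefoldin subunit genes none was called, the median was -0.04, and Vbp1 and Pfdn2 were at -0.39 (FDR 0.708) and -0.09 (FDR 0.933). In neuroblastoma 0 genes of any of the 4 lists were called by either edgeR test. Over all genes the shares were 0.813% by the likelihood ratio test and 0.0336% by the quasi-likelihood test. Between the tumor types 7 of 23, 5 of 17, 5 of 8 and 0 of 6 genes were called in the wild-type comparison, and 7, 4, 5 and 0 in the Casp2-/- comparison, against 47.5% and 48% of all genes.

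The neighbors of the lead genes were read to show whether a wider stretch differed with them. The 3 nearest annotated genes that had counts were taken on each side of each lead gene, 24 in all, and 20 were tested. Of these, 2 were called between the lymphoma genotypes by the likelihood ratio test, Abcb9 and Crip3, against 1.44% of all genes. The quasi-likelihood test called 0. The median log2 fold change of the 20 was 0.24. Groups did not overlap for 1 of the 20, Srf beside Ttbk1 (0.22, likelihood ratio FDR 0.782), against 3.7% of all genes. Abcb9, a lysosomal peptide transporter gene 22892 bases from Pitpnm2, was higher in place of lower (log2 fold change 4.72, FDR 0.00109), from 3, 4, 0 and 1 reads in EuMyc614, EuMyc743b, EuMyc829 and EuMyc835 against 63, 32 and 1 in EuMycC2ko215, EuMycC2ko239 and EuMycC2ko245. EuMycC2ko245 lay within the wild-type range, and without EuMycC2ko215 the difference did not pass (2.93, FDR 0.0893). Crip3, a LIM domain protein gene 10672 bases from Ttbk1, had 2, 0, 4 and 2 reads in EuMyc614, EuMyc743b, EuMyc829 and EuMyc835 against 196, 10 and 0 in EuMycC2ko215, EuMycC2ko239 and EuMycC2ko245 (6.13, FDR 0.0300). Without EuMycC2ko215 it was at 1.25 (FDR 1), and leaving out any 1 EμMyc tumor also lost the call (FDR 0.0759 to 0.0961). Neither pattern resembled that of its lead gene, which was apart in all 3 tumors. The gene next to Vill, Plcd1, lies on the opposite strand with its end 2 bases from the end of Vill, and was at 0.67 (FDR 0.841). The nearest tested genes of Pitpnm2, Arl6ip4 and Mphosph9, were at 0.07 and -0.26, and those of Ccdc30, Ppih and Ppcs, at 0.25 and 0.30, and none of these was called. Beside Ttbk1 and Vill some uncalled neighbors had higher values, in the direction of the lead gene. Cul9, next to Ttbk1, was at 1.36 (FDR 0.0830) and was called without EuMyc743b (1.82, FDR 0.00392) or without EuMycC2ko245 (1.75, FDR 0.00102). Ctdspl, next to Vill, was at 1.69 (FDR 0.217) and was called without EuMycC2ko245 (2.16, FDR 0.0179). Acaa1b, the third gene on the other side of Vill, was at 3.47 (FDR 0.175) and was called without EuMyc743b, EuMycC2ko239 or EuMycC2ko245 (3.99 to 7.03). None of these 3 had groups without overlap. Other uncalled neighbors went against the lead gene. Itga9 and Dlec1 beside Vill were at -0.97 (FDR 0.460) and -0.88 (FDR 0.709), and Rimkla beside Ccdc30 was at -1.85 (FDR 0.525).

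**Figure D4:**
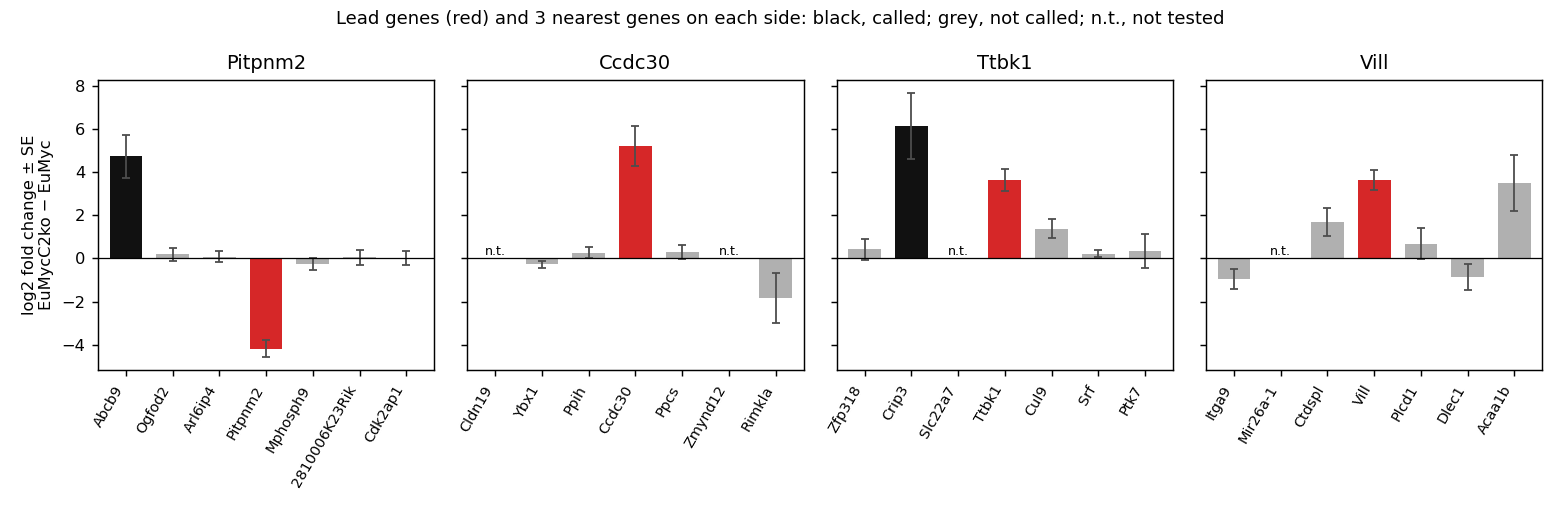
Log2 fold change ± SE between EμMyc/Casp2-/- and EμMyc lymphomas (vertical axis) of each lead gene (red bar) and its neighbors. These are the 3 nearest genes with counts on each side, in chromosomal order (horizontal axis). Neighbors are black where called by the likelihood ratio test, grey where not, n.t. where not tested. Abcb9 (4.72) and Crip3 (6.13) are the black bars, and the genes next to Pitpnm2 and Ccdc30 are near 0.

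The genes whose levels over the 15 tumors were most like those of each lead gene were named by Pearson correlation of log2 CPM. The 15 points fall into 2 tissues and share libraries and depth, so r is a description. Pitpnm2 was most like Amy1, an amylase gene (r = 0.845), Gm16039 (0.826) and Ggh, a folate polyglutamate hydrolase gene (0.807). Amy1 was at 1.31 to 1.75 CPM in EμMyc/Casp2-/- and 531 to 1532 CPM in 3 of the 4 EμMyc tumors, but at 3.24 CPM in EuMyc614, where Pitpnm2 was at 70.5 CPM. Ccdc30 was most like Tmem181b-ps (0.979), Ube2r2, a ubiquitin-conjugating enzyme gene (0.968), and Palm3, a paralemmin gene (0.967). Ttbk1 was most like Tiam1, which encodes an activator of the GTPase Rac (0.986), Hcn3, a pacemaker channel gene (0.984), and Spock2, a proteoglycan gene (0.982). Vill was most like Sgsh, a lysosomal sulfatase gene (0.918), Cd163l1, a scavenger receptor gene (0.913), and Rgs18, a regulator of G protein signalling (0.908). Sgsh was at 3.85 to 8.13 CPM in EμMyc, 11.2 to 23.6 CPM in EμMyc/Casp2-/- and 2.98 to 5.08 CPM in the neuroblastomas. Within the 7 lymphomas r was 0.874 to 0.982 for these 12 genes, a range that carries the genotype difference on which the lead genes were chosen.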

How the data were processed

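RNA-seq libraries of 15 tumors had been aligned with STAR to mm10/GRCm38 by the authors, who deposited gene counts per tumor on either strand, the first strand and the second strand. These are raw read counts, not normalized, for 23329 genes, and the second strand was analysed as in the study. The 4 rows that name no gene (unmapped, multimapping, outside genes on that strand, ambiguous), 66.4% to 71.8% of that column, were left out. The annotation release behind the counts is not given in the sources used here.

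Counts of the 14880 genes with more than 1 CPM in 3 or more tumors were TMM-scaled and fitted with 4 group means over all tumors in edgeR 4.0.16 (R 4.3.3) with contrasts for each comparison. The main test was the likelihood ratio test, since the study used edgeR and reports likelihood ratios, and the quasi-likelihood test is given beside it. A gene was called at an FDR (Benjamini-Hochberg) under 0.05 and over 2-fold. CPM used TMM-scaled library sizes. Depth sets the smallest level seen: 3 reads were 0.173 to 0.586 CPM. Levels per kilobase used exon lengths of GENCODE vM21, and promoters came from RefSeq. Genes listed under older symbols in the files (Ccdc41, 6330503K22Rik, H2-Ke2) were matched by synonym.

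The members and lists were chosen with earlier results of these data known. Named genes were the 8 members, of each list the 2 with the smallest p in the lymphoma contrast and any called, called neighbors, the 3 most correlated genes per lead gene, and Casp2. Other genes named beside them (Pitpna, Pitpnb and the uncalled neighbors) were chosen after their values were seen. The labels name each tumor by its mouse and give no replicate numbers that groups share. Alternatives were DESeq2 1.42.0, RLE scaling, no filter, filterByExpr, the other strand columns, fits of only the groups compared, and leaving out each tumor. The code was tested on simulated data.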

Additional observations from a re-analysis of the deposited data

How the results depend on the processing

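The 4 lead genes kept their direction between the lymphoma genotypes under every alternative tried. With 1 tumor left out, the log2 fold change ranged from -4.39 to -3.99 for Pitpnm2, 4.85 to 6.13 for Ccdc30, 3.27 to 4.76 for Ttbk1 and 3.40 to 3.89 for Vill. The highest values of Ccdc30 and Ttbk1 came without EuMyc743b and EuMyc614, which held 2 of 3 and 10 of 15 of the wild-type reads. The count of relatives called between lymphoma genotypes moved from 0 to 1, each time Pitpnm3, on either strand, on the first strand (also 1 in the interaction) and without EuMycC2ko239 (leave-one-out range 0 to 1). The phosphatidylinositol list moved from 0 to 1 without the same tumor (range 0 to 1). The count of called neighbors, tried under alternatives chosen after seeing the data, moved from 2 to 0 with the quasi-likelihood test and with only the groups compared, to 1 on either strand and on the first strand, and over 0 to 5 with 1 tumor left out. Values near 0 in neuroblastoma changed sign: Ttbk1 to -0.0073 on the first strand and -0.030 to 0.258 with a tumor left out, Vill to 0.13 on either and 0.65 on the first strand, Pitpnm3 to -0.13 and -0.59 likewise, and Pitpnm1 to -0.14 to 0.41 with a tumor left out. Between Casp2-/- tumor types Pitpnm1 ranged from -0.493 to 0.060 with a tumor left out. Between wild-type tumor types Ttbk2 ranged from -3.28 to -2.98 and Pitpnm3 from -4.33 to -1.75 over all alternatives. Unfiltered, Vil1 was at -1.88 between lymphoma genotypes (likelihood ratio FDR 0.752). Between tumor types Vil1 then passed by the same test, from few reads. It was at -1.98 (FDR 0.0416) in the wild-type and -3.53 (FDR 0.0114) in the Casp2-/- comparison. The causes were not tested. No paired analysis was possible because the labels name each tumor by its mouse and give no replicate numbers that groups share.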
